A study of Mus musculus with 6 samples.

Results

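The aminoacyl-tRNA synthetases are the enzymes that join each amino acid to its transfer RNA. The 36 genes described here were taken by symbol from a written list that was chosen with earlier results of these data known. They comprise 20 genes of cytosolic enzymes and 16 genes of mitochondrial ones, out of 46983 genes in the expression table. *Mars1* appears as *Mars* in the annotation used. The study compared splenic B cells of 2 genotypes under conditions that direct class switching to IgA, with 3 bulk RNA-seq libraries each, and asked how HIF-1α, a transcription factor stabilised at low oxygen, acts on this step. In the *Hif1a* KO group, mice with both *Hif1a* alleles floxed carried cre under *Mb1* (*Cd79a*), a gene active from early B-cell stages on. The WT group consisted of littermates that had cre with 1 floxed and 1 intact allele, or 2 floxed alleles without cre. Which of these gave a given library is not in the labels. All mice were on a C57BL/6 background, and the age of those used for these libraries is not given in the sources used here. The methods describe the cells as follicular B cells sorted from spleen. Both groups were cultured for 3 days with 5 μg/ml LPS, which activates B cells, 10 ng/ml TGF-β and 10 ng/ml IL-5, which direct the switch to IgA, and 10 ng/ml BAFF, a survival factor. Nothing in the labels says whether the libraries of a group came from separate mice, so p-values measure only the spread between these libraries.

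A cell holds separate sets of synthetases for translation in the cytosol and in mitochondria, nearly all encoded in the nucleus by different genes. Several cytosolic synthetases sit together in the multi-synthetase complex. When amino acids run short or the kinase arms of the integrated stress response are active, the transcription factor ATF4 is translated more and raises genes for amino acid supply, among them many cytosolic synthetases. Activated B cells that begin to secrete antibody place a high demand on protein synthesis.

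Expression is given as FPKM, the reads on a gene per kilobase of its length and per M reads (M, 1000000). Comparisons of levels between genes therefore rest on the gene lengths that the authors used. The lengths read back from the FPKM values equalled the union of annotated exons for 9302 of 25717 genes above 0. The values are whole multiples of the worth of 1 read, and the depth read back from them was 37.2, 31.0 and 26.0 M reads in WT replicates 1, 2 and 3 and 25.0, 34.4 and 29.9 M in *Hif1a* KO replicates 1, 2 and 3. Each of the 36 synthetases had at least 242 such reads in every library and passed the filter for testing, a mean FPKM of at least 0.5, which 13312 genes passed. Fold changes are KO minus WT on the log2(FPKM + 1) scale, which understates changes of low genes, and were tested with limma. A gene was called where its Benjamini-Hochberg adjusted p over all genes tested was under 0.05. Values in the text follow the order WT replicates 1, 2 and 3, then KO replicates 1, 2 and 3.

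The libraries did not lie together by genotype. On the first principal component of all genes tested, with 54.7% of the variance, WT replicates 2 and 3 lay at 26.2 and 25.9, while WT replicate 1 lay at -15.7, among the KO libraries at -9.9, -7.1 and -19.5. *Hif1a* KO replicate 2 stood apart on the second component (16.7% of the variance) and was the only library with more than a trace of Y-linked transcripts, with a *Ddx3y* FPKM of 43.3. Calls, medians and the balance of the compartments are therefore also given without WT replicate 1. *Hif1a* itself (ENSMUSG00000021109, chr12:73901375-73947530 of mm10, plus strand) had an FPKM of 36.5, 49.8 and 45.8 in WT and 46.5, 45.6 and 52.8 in KO libraries. These groups overlap, and a value over the whole gene does not check the removal of its floxed part.

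Most cytosolic synthetases had their 2 highest values in WT replicates 2 and 3. WT replicate 2 was above every KO library for 17 of the 20 genes (39.9% of all genes tested) and WT replicate 3 for 18 (40.9%), but WT replicate 1 for 4 (15.9%), and WT replicate 1 lay within the KO range for 14 (64.2% of all genes tested). With all 6 libraries, limma called 0 of the 36 synthetases and 0 of 13312 genes (0%), with adjusted p of 0.626 or more for the synthetases. At an unadjusted p under 0.05, 8 cytosolic and 2 mitochondrial synthetases were lower in KO libraries, against 4.50% of all genes, and 0 were higher, against 2.48%. Without WT replicate 1, limma called 11 of 20 cytosolic and 1 of 16 mitochondrial synthetases as lower in KO libraries, against 5.75% of all genes, and 0 as higher, against 3.64%. Each library was left out in turn, but WT replicate 1 was given this weight after its values were seen to lie among those of KO libraries. Leaving out the WT library most like the KO libraries makes larger differences likely in advance, so counts and p-values without it describe the other 5 libraries and support nothing further. Voom, limma's method for reads, called 0 genes on the recovered reads of all 6 libraries and, without WT replicate 1, the same 12 synthetases against 8.60% of all genes as lower. This second count, like that with median-ratio scaling (11 synthetases), was added after the data were seen.

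**Figure D1:**
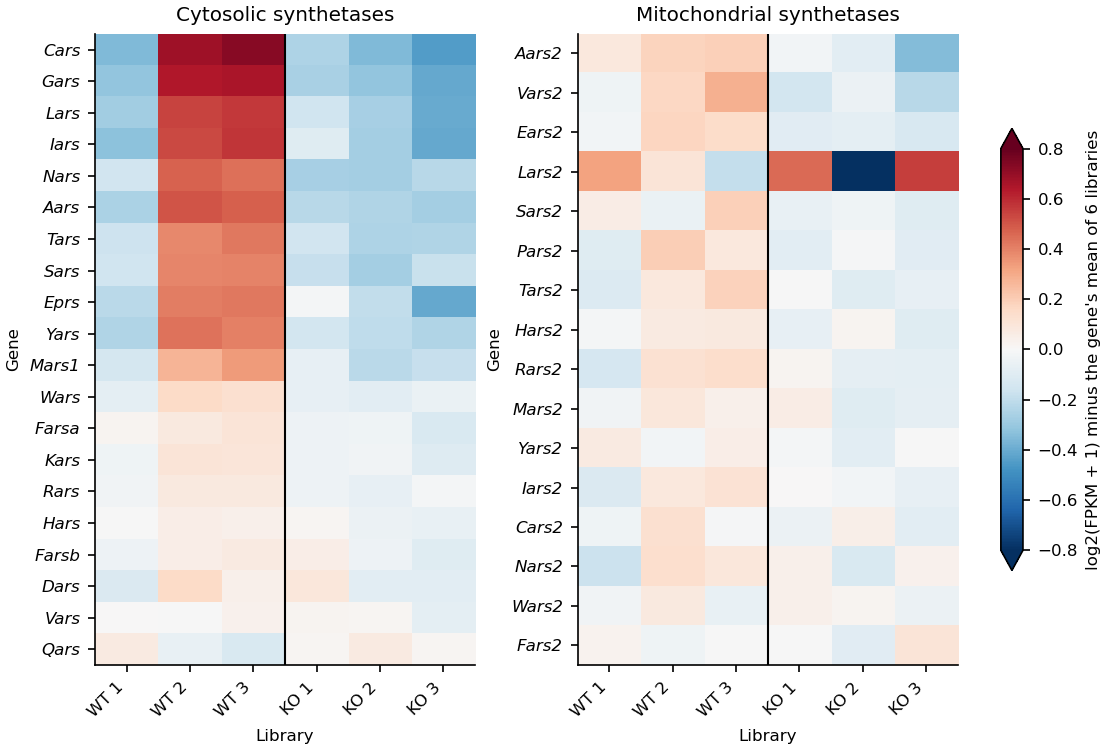
Heat map of log2(FPKM + 1) for each synthetase (rows, ordered by fold change) in each library (columns), relative to the mean of that gene over 6 libraries, with WT libraries left of the black line and KO libraries right of it. The upper 11 cytosolic genes are red in WT replicates 2 and 3 and blue in WT replicate 1 and in most KO libraries, and *Lars2* is far below its mean in KO replicate 2.

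The 11 cytosolic genes called without WT replicate 1 were *Aars*, *Cars*, *Eprs*, *Gars*, *Iars*, *Lars*, *Mars1*, *Nars*, *Sars*, *Tars* and *Yars*. *Cars*, which charges the cysteine tRNA (ENSMUSG00000010755, chr7:143557230-143600090, minus strand), had an FPKM of 52.7, 109 and 113 in WT and 56.8, 52.9 and 49.4 in KO libraries. WT replicates 2 and 3 were about alike and far above the other 4 libraries, and WT replicate 1 lay inside the KO range, so the groups overlap. Its mean was 91.4 ± 33.6 in WT and 53.0 ± 3.71 in KO libraries (SD, n = 3 each). The log2 fold change was -0.70 (SE 0.28, limma adjusted p = 0.626) with all libraries and -1.05 (SE 0.07, limma adjusted p = 0.00244) without WT replicate 1.

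*Gars* makes glycyl-tRNA and, from 1 gene, serves both the cytosol and mitochondria (ENSMUSG00000029777, chr6:55038007-55079500, plus strand). Its FPKM was 112, 218 and 220.1 in WT and 117, 112 and 105 in KO libraries. WT replicate 1 again lay inside the KO range, and the mean of WT replicates 2 and 3 was 1.97 times the KO mean. The log2 fold change was -0.65 (SE 0.25, limma adjusted p = 0.626), and -0.97 (SE 0.06, limma adjusted p = 0.00214) without WT replicate 1.

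*Lars*, the leucyl enzyme of the multi-synthetase complex (ENSMUSG00000024493), was the least abundant cytosolic member by mean FPKM. It had 28.8, 51.7 and 52.5 in WT and 31.4, 29.1 and 26.4 in KO libraries. The 2 high libraries were the same, with a log2 fold change of -0.55 (SE 0.22, limma adjusted p = 0.626), and -0.83 (limma adjusted p = 0.00618) without WT replicate 1.

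*Nars* and *Sars* were those among the 11 genes whose groups did not overlap. *Nars*, for asparagine (ENSMUSG00000024587), had an FPKM of 79.6, 124 and 121 in WT and 73.6, 73.4 and 75.8 in KO libraries. *Sars*, for serine (ENSMUSG00000068739, chr3:108424865-108445209, minus strand), had 99.2, 146 and 146 in WT and 97.6, 91.5 and 98.1 in KO libraries. In both genes WT replicate 1 was the lowest WT library and stood just above the highest KO library, by far less than the distance to WT replicates 2 and 3. The log2 fold changes were -0.51 and -0.42 with all libraries (limma adjusted p = 0.626 for each) and -0.71 and -0.61 without WT replicate 1 (limma adjusted p = 0.00266 and 0.00538). Over all 36 synthetases, 6 had every KO library below every WT library, against 6.03% of all genes tested, and 0 had every KO library above, against 4.06%.

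Across the 11 genes, the log2 fold change ran from -0.70 to -0.31 with all libraries (median -0.49) and from -1.05 to -0.47 without WT replicate 1 (median -0.71). *Mars1*, for methionine, had the smallest of these differences. *Eprs* is a single protein that charges both glutamate and proline tRNAs, and its KO libraries spread more than those of the other called genes relative to their mean, from 63.8 to 84.0 FPKM. These 11 genes were picked out by the test itself, so their medians describe them and support nothing further.

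The other 9 cytosolic genes were *Dars*, *Farsa*, *Farsb*, *Hars*, *Kars*, *Qars*, *Rars*, *Vars* and *Wars*, with log2 fold changes from -0.13 to 0.07, and from -0.21 to 0.12 without WT replicate 1. *Vars*, for valine (ENSMUSG00000007029, chr17:35000987-35016322, plus strand), was the most abundant synthetase, with an FPKM of 426, 424 and 435 in WT and 431, 429 and 401 in KO libraries. Its libraries differed little from each other, and its log2 fold change of -0.03 (95% interval -0.17 to 0.11) became 0.01 with median-ratio scaling. *Farsa*, the catalytic alpha subunit of the phenylalanyl enzyme (ENSMUSG00000003808, chr8:84856989-84869257, plus strand), had 44.8, 46.6 and 47.4 in WT and 42.9, 43.1 and 40.5 in KO libraries. These groups do not overlap, and the difference is small, with a log2 fold change of -0.13 (SE 0.06, limma adjusted p = 0.626). *Farsb*, which encodes the beta subunit of the same enzyme, overlapped between groups, with a log2 fold change of -0.05. *Qars*, for glutamine, was the only cytosolic synthetase with a higher mean in KO libraries, at 141 ± 3.12 against 134 ± 9.46 FPKM (SD, n = 3 each), and its groups overlap.

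The cytosolic genes were also counted by the structural class of the enzyme and by its place in the multi-synthetase complex, and differences between these groups were not tested. Class I and class II synthetases differ in the fold of their catalytic domain. Without WT replicate 1, 5 of 9 class I genes, 5 of 10 class II genes and *Eprs*, which holds both classes, were called as lower, against 5.75% of all genes. The median log2 fold change was -0.31 for class I and -0.28 for class II genes, and -0.47 and -0.38 without WT replicate 1. The multi-synthetase complex was the source of 4 of the called genes out of 8 members, and 7 of 12 genes outside it were called, against the same 5.75%. The median log2 fold change was -0.21 for the members and -0.41 for the genes outside, and -0.31 and -0.61 without WT replicate 1. The groups of libraries did not overlap for 0 of the 8 members and for 3 of the 12 other genes, all lower in KO libraries, against 6.03% of all genes lower and 4.06% higher. Among the scaffold proteins of the complex, *Aimp1*, *Aimp2* and *Eef1e1*, 0 of 3 were called with or without WT replicate 1, with log2 fold changes from -0.12 to 0.04.

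**Figure D2:**
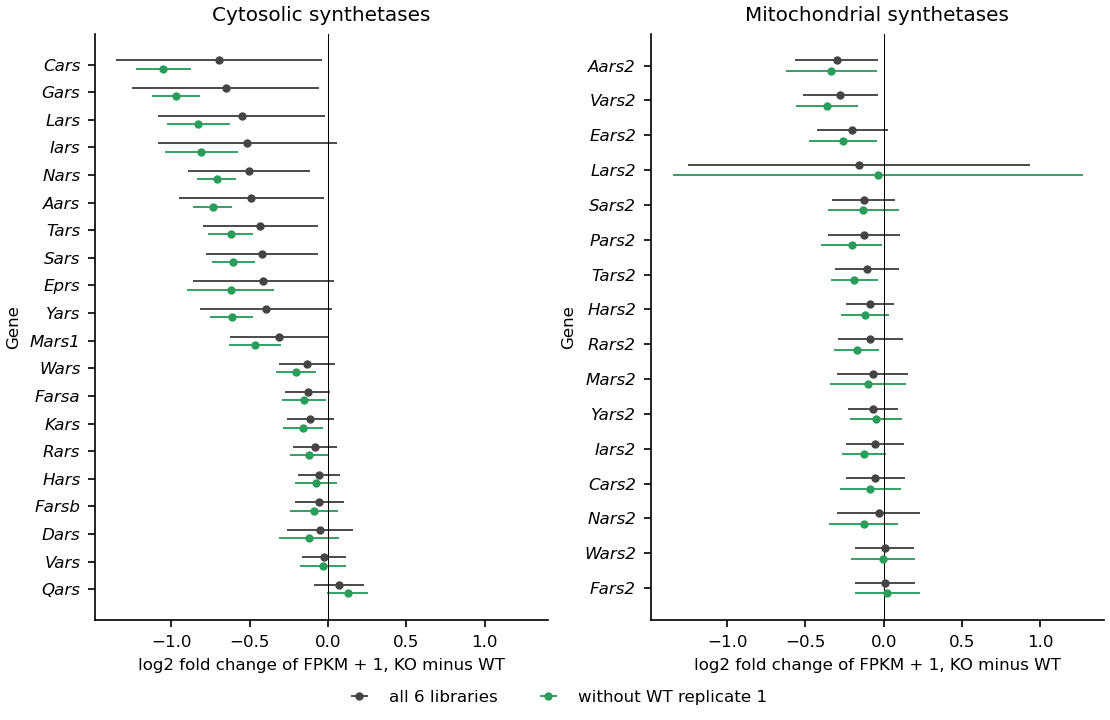
Log2 fold change of FPKM + 1, KO minus WT, for each synthetase with its 95% interval from limma, with all 6 libraries (grey) and without WT replicate 1 (green). Intervals of the upper 11 cytosolic genes shrink and move away from 0 without WT replicate 1, *Cars* from -0.70 to -1.05, whereas most mitochondrial genes stay near 0.

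Promoter sequences were looked at because so many cytosolic members had the same pattern over the libraries. The RefSeq promoter table (GRCm38.p6) reaches from 250 bases before to 50 after each gene's start and held 27 of the 36 synthetases, 13 cytosolic and 14 mitochondrial. *Cars*, *Hars*, *Lars*, *Nars*, *Rars*, *Vars*, *Wars*, *Hars2* and *Pars2* were not matched. The letters TGATGNAA, the core of the composite element bound by ATF4 with a C/EBP partner, were searched on both strands and contain neither of the other motifs searched. They occurred in promoters of 5 of 13 cytosolic and 0 of 14 mitochondrial genes, against 3.97% of all 32851 promoters, a share of promoters and not of genes, since a gene such as *Aars2* can have more than 1 in the table. The 5 genes were *Aars*, *Gars*, *Iars*, *Tars* and *Yars*, and all of them are among the 11 called without WT replicate 1, of which 8 had a promoter in the table. A match of each gene is shown with 11 bases on either side, so that the shared core and the unlike flanks can be seen. Each is written 5′ to 3′ on the strand where the core reads TGATGNAA, in capitals.
Aars: tcagagcgctcTGATGAAAagtgacccgct
Gars: cgcccggtgcaTGATGAAAtagcgcagcca
Iars: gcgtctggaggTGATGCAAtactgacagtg
Tars: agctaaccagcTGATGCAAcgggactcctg
Yars: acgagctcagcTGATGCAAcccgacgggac

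The *Aars* window is chr8:111033840-111033869 on the minus strand, opposite to the gene, and overlaps an untranslated exon part that GENCODE gives for *Aars*. The *Gars* window is chr6:55037960-55037989 on the minus strand, opposite to the gene and upstream of every annotated transcript of it. The *Iars* window is chr13:49682126-49682155 on the minus strand, opposite to the gene, and overlaps an untranslated exon part. The *Tars* window, chr15:11399655-11399684 on the plus strand, is also opposite to its gene. Only a flank of it overlaps an untranslated exon part. Its core lies upstream of the annotated span of *Tars*, which ends at 11399665. The *Yars* window, chr4:129189895-129189924, is on the plus strand, that of the gene, and overlaps annotated exon parts, both untranslated and coding. Counted from the start in the RefSeq table, the cores shown begin 9 bases downstream in *Aars*, 30 upstream in *Gars*, 7 downstream in *Iars*, 15 upstream in *Tars* and 3 downstream in *Yars*. A match says only that these letters are present.

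The 4 of these genes not yet described were chosen for their motif after their values were seen. *Aars*, for alanine, had an FPKM of 98.0, 166 and 163 in WT and 99.9, 98.7 and 96.5 in KO libraries. *Iars*, for isoleucine, had 75.9, 139 and 143 in WT and 89.4, 79.2 and 71.9 in KO libraries. WT replicates 2 and 3 were again the high libraries and WT replicate 1 lay within the KO range of both genes. *Tars*, for threonine, had 46.7, 68.8 and 70.6 in WT and 47.0, 43.9 and 44.1 in KO libraries. *Yars*, for tyrosine, had 75.4, 121 and 119 in WT and 80.7, 77.5 and 75.4 in KO libraries. The pattern was the same, with WT replicate 1 inside the KO range for *Tars* and just under its lower edge for *Yars*.

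Of the cytosolic promoters without the core, those of *Eprs*, *Mars1* and *Sars* belong to called genes and those of *Dars*, *Farsa*, *Farsb*, *Kars* and *Qars* do not. The letters ACGTG, the core of the site that HIF binds, occurred on either strand in promoters of 6 of 13 cytosolic and 4 of 14 mitochondrial genes, against 19.6% of all promoters. The E-box CACGTG, which contains ACGTG and therefore overlaps with it, occurred in those of 4 of 13 and 1 of 14 genes, against 7.15% of all promoters. *Aars*, *Iars* and *Tars* held both TGATGNAA and CACGTG.

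Mitochondrial synthetases were less abundant than cytosolic ones and had a smaller median difference between groups. Their mean FPKM ran from 2.90 to 101 with a median of 12.5, against 36.7 to 424 with a median of 85.5 for the cytosolic genes. A log2 fold change below 0 was seen in 14 of 16, and the median over the 16 log2 fold changes was -0.09, or -0.13 without WT replicate 1. *Nars2* turned to a higher value under quantile normalization. For the cytosolic genes the median was -0.35 (19 of 20 below 0, with *Vars* turning above 0 under median-ratio scaling) and -0.54 without WT replicate 1, and for all genes tested it was -0.03 and -0.05.

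*Aars2*, *Ears2* and *Vars2* had the largest differences and were the mitochondrial genes whose groups did not overlap. *Vars2*, for valine (ENSMUSG00000038838, chr17:35655634-35667592, minus strand), had an FPKM of 17.3, 20.1 and 21.9 in WT and 15.9, 17.2 and 15.1 in KO libraries. WT replicate 1 and KO replicate 2 are nearly equal. Its log2 fold change was -0.28 (SE 0.10, limma adjusted p = 0.626), and -0.36 (limma adjusted p = 0.0453) without WT replicate 1, a call that was lost when median-ratio scaling was added.

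*Aars2*, for alanine (ENSMUSG00000023938, chr17:45506841-45520843, plus strand), had an FPKM of 5.01, 5.41 and 5.46 in WT and 4.57, 4.36 and 3.46 in KO libraries. WT replicate 1 lay about midway between the other WT libraries and the highest KO library, and KO replicate 3 was the lowest. Its log2 fold change was -0.30 (SE 0.11, limma adjusted p = 0.626), and -0.33 (limma adjusted p = 0.129) without WT replicate 1. *Ears2*, for glutamate (ENSMUSG00000030871, chr7:122037213-122067263, minus strand), had 3.05, 3.63 and 3.54 in WT and 2.85, 2.89 and 2.76 in KO libraries, with a log2 fold change of -0.20 (SE 0.10, limma adjusted p = 0.626). The KO libraries lie close together, and WT replicate 1 is between them and the other WT libraries.

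*Lars2*, for leucine (ENSMUSG00000035202, chr9:123366927-123462666, plus strand), was the most abundant mitochondrial synthetase and the most variable. Its FPKM was 118, 101 and 82.4 in WT and 129, 39.2 and 138 in KO libraries. KO replicate 2 held the lowest value and the other KO libraries the highest ones, so the KO group encloses the WT group. The log2 fold change was -0.16 with a 95% interval of -1.25 to 0.94, and 0.42 without KO replicate 2. *Mars2*, for methionine (ENSMUSG00000046994, chr1:55237177-55248470, plus strand), was the least abundant by FPKM, with 2.82, 3.14 and 3.01 in WT and 3.06, 2.64 and 2.71 in KO libraries. Its recovered reads, at least 864 in every library, exceeded those of *Ears2*, at most 385. This lowest rank therefore rests on the gene length that the authors used. The WT and KO values of *Mars2* overlap. The other 11 mitochondrial genes had log2 fold changes from -0.13 to 0.01, and from -0.20 to 0.02 without WT replicate 1. *Hars2* overlaps at 1 end of its annotated span with *Hars*, which lies on the opposite strand, so that reads there may be uncertain between the 2 genes.

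**Figure D3:**
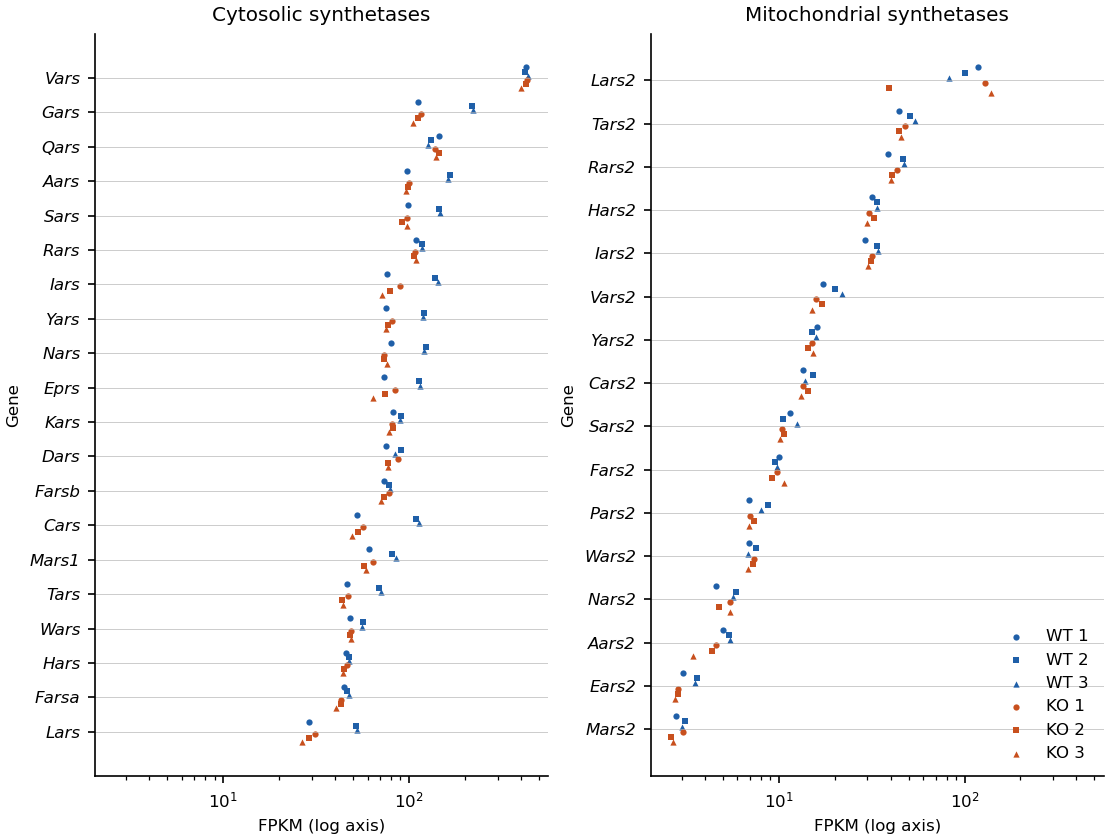
FPKM (log axis) of each synthetase in each library, ordered by mean level within the compartment, with WT libraries in blue and KO libraries in orange and a symbol for each replicate number. *Vars* is the most abundant, at 401 to 435, and *Mars2* the least, at 2.64 to 3.14, and *Lars2* is spread widest among the mitochondrial genes.

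For the same amino acid, the cytosolic gene was nearly always more abundant than the mitochondrial one. Among 16 pairs, with *Eprs* paired with both *Ears2* and *Pars2*, the cytosolic gene had the higher FPKM in every library in 14, and the median of the geometric mean ratios was 6.50. The ratio of *Eprs* to *Ears2* was the largest, 27.4 as a geometric mean over the libraries. *Lars* and *Lars2* were the pair with the reverse order in every library, with ratios of *Lars* to *Lars2* from 0.191 to 0.743. *Tars* and *Tars2* were nearly equal, with ratios of *Tars* to *Tars2* of 1.06, 1.36 and 1.30 in WT and 0.987, 0.986 and 0.967 in KO libraries. *Cars* and *Cars2* showed the widest change among libraries after *Lars* and *Lars2*, with ratios of 3.88, 7.10 and 8.15 in WT and 4.21, 3.66 and 3.76 in KO libraries. For *Vars* and *Vars2* the ratio was instead lower in WT replicates 2 and 3, at 24.6, 21.1 and 19.8 in WT and 27.0, 25.0 and 26.5 in KO libraries.

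Summed over each compartment, the cytosolic synthetases had an FPKM of 1851, 2421 and 2430.0 in WT and 1904, 1838 and 1775 in KO libraries. WT replicates 2 and 3 were high, and WT replicate 1 was within the KO range. The mitochondrial sum was 359.8, 371 and 359 in WT and 377, 283 and 377 in KO libraries, and *Lars2* alone made up 13.8% of it in KO replicate 2 and 23.0% to 36.7% in the other libraries. Without *Lars2* the mitochondrial sum was 242, 269.6 and 276 in WT and 248, 244 and 239 in KO libraries, which again leaves WT replicate 1 within the KO range.

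The balance of the compartments was taken in each library as the mean log2(FPKM + 1) of the cytosolic genes minus that of the mitochondrial genes. It was 2.41, 2.73 and 2.75 in WT and 2.44, 2.50 and 2.38 in KO libraries, or 2.63 ± 0.19 and 2.44 ± 0.06 (SD, n = 3 each). The difference of -0.19 is about the size of the WT spread, and the groups overlap because of WT replicate 1; without that library it was -0.30. With *Lars2* left out of the mitochondrial mean, an alternative added after the data were seen, the balance was 2.61, 2.91 and 2.91 in WT and 2.65, 2.61 and 2.60 in KO libraries.

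**Figure D4:**
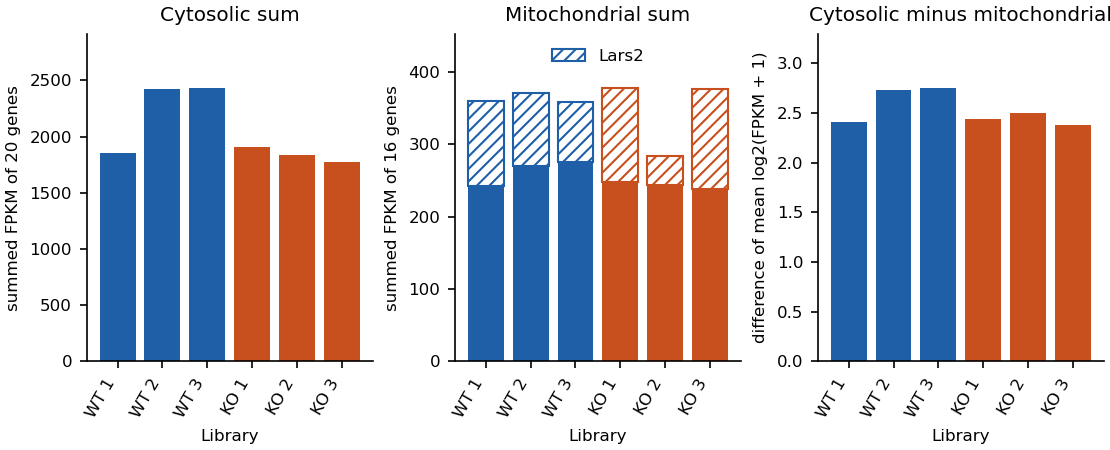
Summed FPKM of the 20 cytosolic and of the 16 mitochondrial synthetases (hatched part *Lars2*) and the difference of their mean log2(FPKM + 1), as a bar for each library, WT in blue and KO in orange. The cytosolic sum is 2421 and 2430.0 in WT replicates 2 and 3 and between 1775 and 1904 in the other 4 libraries.

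Most genes of the amino acid response were also highest in WT replicates 2 and 3, each of which was above every KO library for 12 of the 13 genes on this list, against 39.9% of all genes for WT replicate 2 and 40.9% for WT replicate 3. Of these 13 genes, 0 were called with all libraries and 11 without WT replicate 1, all lower in KO libraries, against 5.75% of all genes, with median log2 fold changes of -0.73 and -1.09. *Eif2ak4*, the kinase that senses uncharged tRNA, and *Ddit3* were those not called. *Atf4*, the transcription factor named above, had an FPKM of 149, 229 and 233 in WT and 144, 133 and 136 in KO libraries. *Slc7a5*, a transporter of large neutral amino acids, had 98.2, 234 and 241 in WT and 96.0, 87.8 and 90.8 in KO libraries. *Sesn2*, a sensor of leucine, had 11.0, 32.5 and 30.0 in WT and 10.4, 10.6 and 10.2 in KO libraries. In these genes and in *Ddit4*, an inhibitor of mTORC1, the groups do not overlap, but WT replicate 1 lies much nearer to the KO libraries than to the other WT libraries. The log2 fold changes of *Slc7a5* and *Sesn2* were -0.95 and -1.02 (limma adjusted p = 0.626 for each), and -1.37 and -1.50 (limma adjusted p = 0.000714 for each) without WT replicate 1. *Asns*, the asparagine synthetase, was named after its values were seen. It had 27.5, 142 and 142 in WT and 28.4, 26.5 and 27.0 in KO libraries. The mean of WT replicates 2 and 3 was 5.20 times the KO mean, while WT replicate 1 lay inside the KO range.

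**Figure D5:**
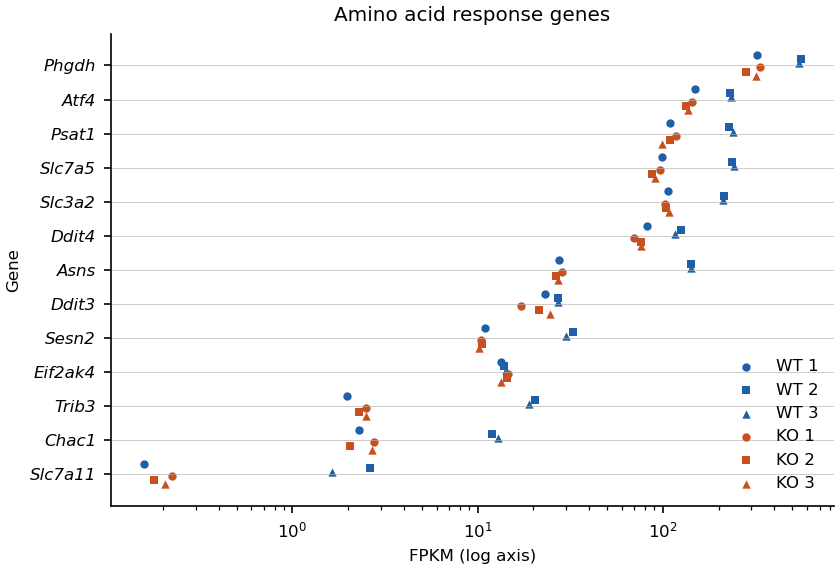
FPKM (log axis) of the 13 amino acid response genes in each library, WT in blue and KO in orange, with a symbol for each replicate number. WT replicates 2 and 3 stand apart from the other 4 libraries in most genes, as for *Asns* with 142 in both, but not for *Eif2ak4* and *Ddit3*.

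Genes for other steps of tRNA use were counted in the same way. Of 7 genes for tRNA maturation and export, 1 was called as lower without WT replicate 1 (5.75% of all genes), *Xpot*, which carries tRNA out of the nucleus, with an FPKM of 18.0, 26.2 and 27.4 in WT and 19.3, 17.1 and 17.3 in KO libraries. *Elac1*, which trims the 3′ end of tRNAs, had every KO library lower, with 3.57, 4.04 and 4.38 in WT and 3.36, 3.56 and 3.40 in KO libraries. Neither the 8 other tRNA-charging enzymes nor the 6 genes for editing and tRNA hydrolysis had a call by limma with or without WT replicate 1, against 5.75% of all genes lower and 3.64% higher without it. *Qrsl1*, a subunit of the mitochondrial amidotransferase that completes glutaminyl-tRNA, had every KO library higher, with 19.3, 18.2 and 19.7 in WT and 21.3, 20.5 and 20.8 in KO libraries. With limma, the 5 cytosolic and 4 mitochondrial elongation factors had 0 calls with or without WT replicate 1, beside the same shares of all genes, with median log2 fold changes of -0.02 and -0.10, and of 0.003 and -0.16 without WT replicate 1. Voom without WT replicate 1 called 1 of them as lower, *Gfm2* (voom adjusted p = 0.0478), against 8.60% of all genes.

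Markers of other cells also differed between these libraries, and their part in the results above was not tested. The 6 B-cell markers were high everywhere, with a summed FPKM of 3718, 2879 and 2932 in WT and 2867, 3889 and 2961 in KO libraries, led by *Cd79a*. *Cd79a* had 1203, 739 and 779 in WT and 498, 1074 and 611 in KO libraries. It is the gene named above for the cre, and an effect of the cre on it was not tested. The 5 plasma cell markers, led by *Xbp1*, summed to 589.7, 325 and 297 in WT and 551, 408 and 754 in KO libraries. This sum was lowest in WT replicates 2 and 3, where the cytosolic synthetases were highest. *Xbp1*, *Prdm1* and *Jchain* each had their lowest values in WT replicates 2 and 3. *Sdc1* did not follow this order and was lowest in KO replicate 1. *Tnfrsf17* was near the floor in every library and did not follow it either. In bulk libraries fewer cells of a type and less RNA per cell cannot be told apart. The 8 macrophage markers, led by *Adgre1*, summed to 73.1, 168 and 118 in WT and 73.8, 78.5 and 66.5 in KO libraries, highest in WT replicates 2 and 3. Of these, *Lyz2* had an FPKM of 6.18, 58.3 and 26.2 in WT and 0.5996, 2.23 and 3.70 in KO libraries, *Csf1r* was at 0.754 or below everywhere, and *C1qb* was at 0 in KO replicate 1. The 5 neutrophil markers, led by *S100a9*, summed to 32.6 in WT replicate 1 and to 0.232 or less in every other library, and *S100a8* was at 0 in all KO libraries. Dendritic cell markers, led by *Flt3*, summed to 11.1 to 15.9, and *Siglech* among them was lower in every KO library, with 5.36, 2.77 and 4.50 in WT and 1.86, 2.21 and 2.50 in KO libraries. T-cell markers, led by *Cd3g*, summed to 1.32 or less, and NK-cell markers, led by *Klrk1*, to 0.308 or less. With all libraries limma called 0 of these markers. Without WT replicate 1, limma called *Cd79b*, 1 of 6 B-cell markers tested, and *Prdm1* and *Jchain*, 2 of 4 plasma cell markers tested, as higher in KO libraries, against 3.64% of all genes. It called *Lyz2* and *C1qa*, 2 of 4 macrophage markers tested, as lower, against 5.75% of all genes. Of the 2 neutrophil and 3 dendritic cell markers tested, 0 were called. Voom without WT replicate 1 called 4 of 4 macrophage markers tested as lower, against 8.60% of all genes. These include *Adgre1* and *Cd68* (voom adjusted p = 0.0455 and 0.0463). *Lyz2*, *Csf1r* and *C1qb*, 3 of all 8 macrophage markers, had every KO library below every WT library, against 6.03% of all genes tested.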

How the data were processed

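Per the labels, RNA of cultured splenic B cells was sequenced in 6 libraries, 3 per genotype. The authors used TopHat for alignment to mm10 and HTSeq for counting per gene, and deposited FPKM values without stating the annotation release or strand option, so genes that overlap or have near-identical copies are uncertain. Symbols and coordinates came from GENCODE vM21 (46488 of 46983 genes named). Whole reads were recovered for 25716 of 25717 genes above 0 (tolerance 0.02), and 1 such read may be a read or a pair. For a gene above 0 in only 1 library, some length always gives a whole number, so its recovery was fixed in advance. The test was limma 3.58.1 in R 4.3.3 (trend, pseudocount 1, no covariates), tested on simulated data. Python 3.11.15, pandas 2.3.3, numpy 2.4.6 and matplotlib 3.10.9 were used. Named genes were members whose groups do not overlap, the highest, lowest and 3 largest fold changes per compartment, *Hif1a*, and up to 4 non-overlapping genes per other list. Members and lists were chosen with earlier results of these data known. Alternatives were a pseudocount of 0.1, no filter, 2 other scalings, voom, the replicate number as a block and each library left out. No pair of libraries was identical (0 pairs). Protein sequences were not analysed here, and some single items are not reported here.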

Additional observations from a re-analysis of the deposited data

How the results depend on the processing

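WT replicate 1 decided the calls: leaving out each library in turn gave 0 to 1251 genes called and 0 to 12 synthetases, with the highest counts without WT replicate 1. Without *Hif1a* KO replicate 1, 1 gene was called, *Ighd5-3*, named for that reason. Counts added after the data were seen, without WT replicate 1, were 1763 genes and 12 synthetases with voom and 1156 genes and 11 synthetases with median-ratio scaling. Pseudocount 0.1, no filter, both scalings and voom on all 6 libraries each called 0 genes. The cytosolic median log2 fold change was -0.54 to -0.26 over all alternatives, the mitochondrial one -0.14 to -0.05, and the balance difference -0.30 to -0.13.

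Deviations from the group means correlated at -0.099, 0.139 and -0.276 across genes for replicates 1, 2 and 3. For libraries with unlike replicate numbers the correlations ran from -0.2 to 0.304. With 3 libraries per group, these values cannot tell whether the shared replicate numbers stand for pairs. With the replicate block, 0 genes and 0 synthetases were called and the medians and balance were -0.355, -0.088 and -0.190.

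Of 36 synthetases, 29 kept their direction under all 14 alternatives. Leaving out single libraries turned the log2 fold change of *Vars* (-0.044 to 0.0067), *Nars2* (-0.129 to 0.027), *Wars2* (-0.021 to 0.048), *Dars* (-0.122 to 0.011), *Fars2* (-0.041 to 0.055), *Lars2* (-0.473 to 0.423) and, on the response list, *Eif2ak4* (-0.00085 to 0.062). *Vars* also turned with median-ratio scaling (0.0082) and *Nars2* with quantile normalization (0.014). Without WT replicate 1, median-ratio scaling turned *Vars* (0.026), *Lars2* (0.021) and *Yars2* (0.0026), and *Wars2* was below 0 with limma (-0.0073) and with voom (-0.015). The cause was not tested.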
